A study of Homo sapiens with 4 samples.

Results

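Chemokines are small secreted proteins that direct leukocytes along a concentration gradient, and airway epithelium releases them when it is injured or infected. The genes described here are 10 CXC and CC chemokines out of 23004 named genes in the data. They are the neutrophil attractants CXCL1, CXCL2, CXCL3, CXCL5, CXCL6 and IL8 (the gene of interleukin 8, also called CXCL8), the interferon-type chemokines CXCL10 and CXCL11, and the CC chemokines CCL2 and CCL20. They were chosen by name, and all 10 were found. The cells were BEAS-2B, an immortalized line of human bronchial epithelium. The 4 libraries were 2 exposed to formaldehyde, given in the labels as 100 µM for 48 h with the compound named in the series title, and 2 left untreated for the same time. Nothing in the labels says whether replicates came from separate cultures, so the spread between libraries may be technical. Expression is in FPKM, a fragment density scaled for transcript length and sequencing depth, as the authors deposited it and summed over the transcripts of a gene.

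As background, the neutrophil attractants carry a glutamate-leucine-arginine motif before their first cysteines and act through the receptors CXCR1 and CXCR2. Their genes are classical targets of the transcription factor NF-kB, and their messenger RNAs are short-lived because AU-rich elements in the 3' UTR recruit decay factors. CXCL10 and CXCL11 lack that motif, are induced by interferons through interferon regulatory factors, and attract T cells through CXCR3. CCL2 attracts monocytes through CCR2, and CCL20 attracts cells that carry CCR6.

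The libraries held about 14225000 and 22214000 fragments with formaldehyde and 16796000 and 26464000 untreated, as recovered from the deposited coverage and FPKM. The epithelial keratins KRT8 and KRT18 and the mesenchymal filament gene VIM were abundant in every library, at 206 FPKM or more, whereas CDH1, the gene of E-cadherin, was at 0.631 FPKM or less and KRT5 was listed at 0. The 10 epithelial and BEAS-2B markers summed to 2445 and 1990 FPKM with formaldehyde and to 1518 and 1461 FPKM untreated. Of the 10, 5 were higher in both formaldehyde libraries, KRT8, KRT18, KRT7 and VIM among them, and 2, KRT19 and CDH1, were lower in both. The same shares were 16.2% and 10.7% of the 12407 genes with a mean of at least 1 FPKM. For VIM the nearest libraries were at 786 FPKM with formaldehyde and 782 FPKM untreated, and KRT19 stayed at 0.378 FPKM or less. KRT7 was at 531 and 319 FPKM with formaldehyde and at 191 and 140 FPKM untreated. The part of these marker levels in the chemokine values was not tested. The summed level of 6 neutrophil markers was 0 and 0.0554 FPKM with formaldehyde and 0.136 and 0.115 FPKM untreated. Of 14 leukocyte markers, 9 stayed under 0.1 FPKM in every library, PTPRC, CD3E and LYZ among them. Their sum, mostly from CD68, was 52.9 and 33.1 FPKM with formaldehyde and 19.0 and 31.9 FPKM untreated. CD14 was also expressed, at 1.77 and 6.23 FPKM with formaldehyde and at 3.75 and 11.98 FPKM untreated. CORO1A was at 4.75 and 4.02 FPKM with formaldehyde and at 1.53 and 2.69 FPKM untreated. Of the 14, 3 (CD68, CORO1A, LAPTM5) were higher in both formaldehyde libraries and 0 lower in both, beside the same shares of all genes. The 7 fibroblast markers summed to 145 and 277 FPKM with formaldehyde and to 301 and 600 FPKM untreated, nearly all of it COL1A1. PDGFRB was also expressed, at 7.40 and 22.2 FPKM with formaldehyde and at 21.8 and 30.0 FPKM untreated. COL3A1 and DCN were at 0.0725 FPKM or less. Of the 7, 2, COL1A1 and LUM, were lower in both formaldehyde libraries and 0 were higher in both, beside the same shares of all genes. In bulk RNA, fewer cells of a kind and less RNA per cell cannot be told apart.

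The 6 neutrophil chemokine genes lie within 358.8 kb of chromosome 4 (hg19), from IL8 at chr4:74606223-74609433 and CXCL6 at chr4:74702273-74704477 to CXCL2 at chr4:74962754-74964997. CXCL10 (chr4:76942269-76944689) and CXCL11 (chr4:76954840-76957350) are neighbours 1.98 Mb away, separated from each other by 10.2 kb. CCL2 is on chromosome 17 (chr17:32582296-32584220) and CCL20 on chromosome 2 (chr2:228678558-228682280). Each has 1 listed transcript, except CCL20 with 2. CXCL10 and CXCL11 lie inside the span of ART3, a gene on the opposite strand that was at 0.0529 FPKM in formaldehyde replicate 1 and listed at 0 elsewhere.

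The promoters found for these genes hold an NF-kB type site, and windows around it are shown for some of them. Promoters of 9 of the 10 genes were found in RefSeq (GRCh38.p14, 250 bases before to 50 after the start), all but CCL2. Capitals mark matches on either strand to the NF-kB consensus, to the shorter GGAATTTCC, to TGACTCA (an AP-1 site) or to the core of an interferon-stimulated response element (GAAA, any 2 bases, GAAA). Each window is 70 bases, written along the strand of the gene.
CXCL1: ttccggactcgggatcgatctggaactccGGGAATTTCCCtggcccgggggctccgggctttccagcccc
CXCL2: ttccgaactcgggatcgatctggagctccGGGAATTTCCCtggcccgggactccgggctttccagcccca
CXCL5: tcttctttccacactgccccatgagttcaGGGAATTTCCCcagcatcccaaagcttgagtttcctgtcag
CXCL6: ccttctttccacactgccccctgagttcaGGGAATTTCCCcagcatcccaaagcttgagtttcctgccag
IL8: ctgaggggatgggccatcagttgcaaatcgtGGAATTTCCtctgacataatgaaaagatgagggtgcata
CXCL10, distal: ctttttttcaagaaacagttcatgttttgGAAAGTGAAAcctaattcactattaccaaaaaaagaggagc
CXCL10, proximal: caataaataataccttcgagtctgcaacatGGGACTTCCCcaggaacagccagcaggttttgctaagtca
CXCL11: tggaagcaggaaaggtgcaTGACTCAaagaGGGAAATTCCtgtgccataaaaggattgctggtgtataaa

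On GRCh38.p14 these windows are chr4:73869285-73869354 (plus strand) for CXCL1, chr4:74099233-74099302 (minus) for CXCL2, chr4:73998728-73998797 (minus) for CXCL5, chr4:73836559-73836628 (plus) for CXCL6 and chr4:73740447-73740516 (plus) for IL8. Those of CXCL10 are chr4:76023678-76023747 and chr4:76023580-76023649 (minus), and that of CXCL11 is chr4:76036107-76036176 (minus). GGAATTTCC stood in 8 of the 9 promoters, all but CCL20, against 0.461% of all 35116 promoters. With 1 more G before it, the site stood in 5 of 9, CXCL1, CXCL2, CXCL3, CXCL5 and CXCL6, against 0.145%. The wider NF-kB consensus stood in 8 of 9, all but IL8, against 11.3%, and overlaps with the shorter site. The response element core was found in CXCL10 alone of the 9 and in 3.57% of all promoters, and TGACTCA in IL8 and CXCL11 and in 4.95%. In CXCL1 the longer site covers positions -79 to -70 from the start and in CXCL6 positions -90 to -81. The GGAATTTCC match of CXCL10, on the other strand, covers positions -176 to -168 and lies between the windows shown. The CXCL2 and CXCL1 windows share 66 bases of 70, those of CXCL3 and CXCL1 share 63 and those of CXCL6 and CXCL5 share 67, whereas CXCL6 and CXCL1 share 43. A match describes the letters, not a bound site.

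**Figure D1:**
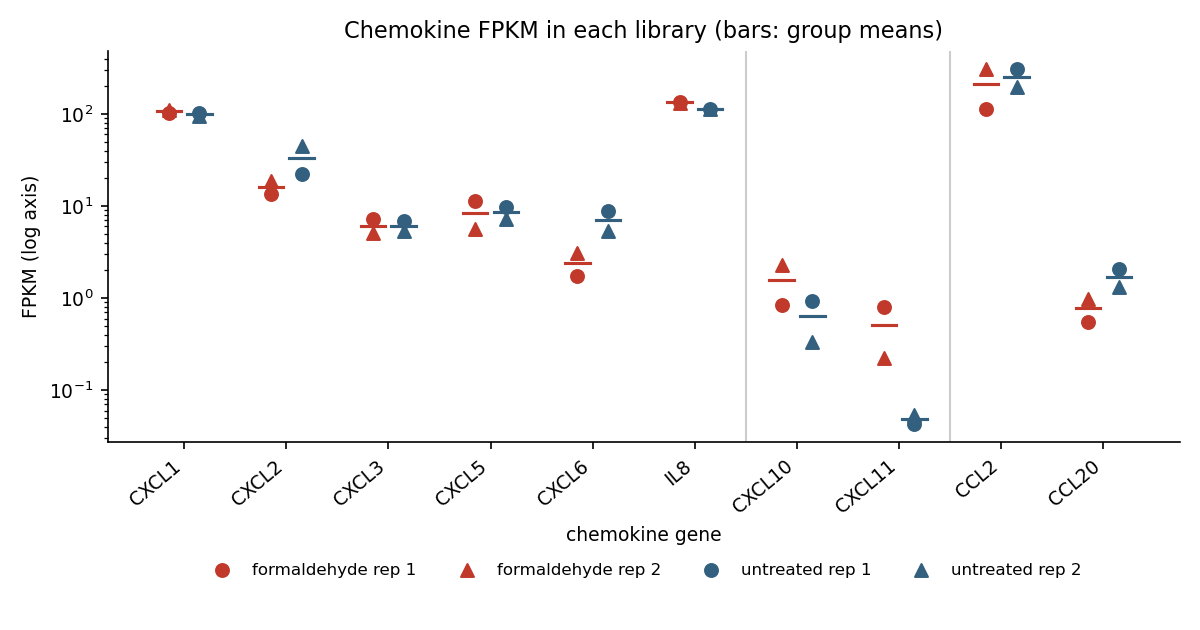
FPKM of the 10 chemokines (log axis) in each library, formaldehyde in red left of untreated in blue, with replicate 1 as a circle, replicate 2 as a triangle and group means as bars. CCL2, IL8 and CXCL1 lie near or above 100 FPKM in every library. The groups do not overlap for IL8 and CXCL11 (higher with formaldehyde) and for CXCL2, CXCL6 and CCL20 (lower).

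BEAS-2B cells made 3 chemokine messages in quantity, CCL2, IL8 and CXCL1. Together these held 90.7% and 93.8% of the FPKM of the 10 genes with formaldehyde and 91.1% and 86.3% untreated. By mean level the order with formaldehyde was CCL2, IL8, CXCL1, CXCL2, CXCL5, CXCL3, CXCL6, CXCL10, CCL20 and CXCL11. Untreated cells had the same first 5, followed by CXCL6, CXCL3, CCL20, CXCL10 and CXCL11. Neighbours whose ranges overlapped with formaldehyde were CCL2 and IL8, CXCL5 and CXCL3, CXCL6 and CXCL10, CXCL10 and CCL20, and CCL20 and CXCL11. In untreated cells only CXCL5 and CXCL6, and CXCL6 and CXCL3, overlapped among neighbours.

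No chemokine passed the test of formaldehyde against untreated. The test was limma on log2(FPKM + 1), where the added 1 shrinks the fold changes of weakly expressed genes, over the 12407 genes with a mean of at least 1 FPKM, and the Benjamini-Hochberg adjusted p was 0.9999 for each of the 9 chemokines tested. So 0 of 9 passed in either direction, against 0.153% of all genes at an adjusted p of 0.05 (0.0806% higher and 0.0725% lower), and 2.76% of all genes had an unadjusted p under 0.05. Of the 9 chemokines, CXCL6 alone had an unadjusted p under 0.05. Both formaldehyde libraries lay above both untreated ones for 1 of the 9, IL8, against 16.2% of all genes tested. They lay below for 3 of the 9, CXCL2, CXCL6 and CCL20, against 10.7% of all genes. CXCL11 was under the filter and also lay above. With 2 libraries against 2, an exact permutation test of a single gene cannot give a two-sided p under 0.333.

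IL8, the chemokine for which the receptors CXCR1 and CXCR2 were first named, stood at 136 and 131 FPKM with formaldehyde, against 113 and 115 FPKM untreated. The groups did not overlap, and replicates lay close together. The means were 134 ± 3.20 and 114 ± 1.17 FPKM (SD, n = 2 each), a ratio of 1.18. The log2 fold change was 0.23 with a 95% interval of -0.28 to 0.75 that spans 0. Its value stayed between 0.21 and 0.26 when any library was left out.

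CXCL1, the most abundant of the closely related GRO chemokines, stood at 101 and 112 FPKM with formaldehyde and at 102 and 95.9 FPKM untreated. The groups overlapped, and the log2 fold change was 0.10 (95% interval -0.42 to 0.63), and 0.034 to 0.17 with each library left out. CXCL3, another GRO chemokine, stood at 7.15 and 5.11 FPKM with formaldehyde and at 6.87 and 5.33 FPKM untreated. Its log2 fold change was 0.00032 (95% interval -0.65 to 0.65), and its replicates differed more than its groups.

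CXCL2, a GRO chemokine also called MIP-2 alpha, was lower with formaldehyde in both libraries. It stood at 13.5 and 18.8 FPKM with formaldehyde, against 22.5 and 44.4 FPKM untreated. Untreated replicate 2 was the high library, farther above untreated replicate 1 than that library was above either formaldehyde one. The untreated mean was 2.07 times the formaldehyde mean, and the log2 fold change was -0.95 (95% interval -1.93 to 0.03; limma unadjusted p = 0.0556). Without untreated replicate 2 it was -0.47.

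Some genes of the pathway lists were also high in untreated replicate 2, and others were not. ZFP36, the gene of tristetraprolin, which binds AU-rich elements and speeds messenger decay, was at 36.5 FPKM there and at 6.76 FPKM in untreated replicate 1, against 6.16 and 7.48 FPKM with formaldehyde. NFKBIZ, an NF-kB cofactor, was at 46.1 FPKM there, against 16.6 to 17.9 FPKM in the other libraries. IL6 was at 36.5 FPKM there and at 12.03 to 15.7 FPKM elsewhere (NFKBIZ and IL6 chosen after their values were seen). TNIP1, the NF-kB list gene with the highest mean, was at 104 FPKM there and at 105 FPKM in untreated replicate 1. Both formaldehyde libraries were still below untreated replicate 1 in CXCL2 without it.

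CXCL6, a neutrophil attractant also known as GCP-2, had the largest difference on the log2 scale among the 9 chemokines tested. It stood at 1.74 and 3.12 FPKM with formaldehyde, against 8.84 and 5.41 FPKM untreated. Behind these values were 36 and 101 fragments with formaldehyde and 216 and 208.5 untreated, a ratio of 0.384 at equal depth (95% counting interval 0.314 to 0.466, which compares these libraries and not the conditions). The means were 2.43 ± 0.979 and 7.13 ± 2.42 FPKM (SD, n = 2 each), and the untreated mean was 2.93 times the formaldehyde mean. The log2 fold change was -1.24 ± 0.34 (SE; 95% interval -2.11 to -0.37; limma unadjusted p = 0.0146). It ran from -1.55 to -0.93 with each library left out in turn, and no adjusted p under any setting was below 0.543.

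CXCL5, the neighbour of CXCL6 in sequence, stood at 11.2 and 5.60 FPKM with formaldehyde and at 9.84 and 7.20 FPKM untreated. The formaldehyde libraries enclosed both untreated values. Its log2 fold change was -0.069 (95% interval -1.01 to 0.87). The sign turned without formaldehyde replicate 2 (0.38) and without untreated replicate 1 (0.13).

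**Figure D2:**
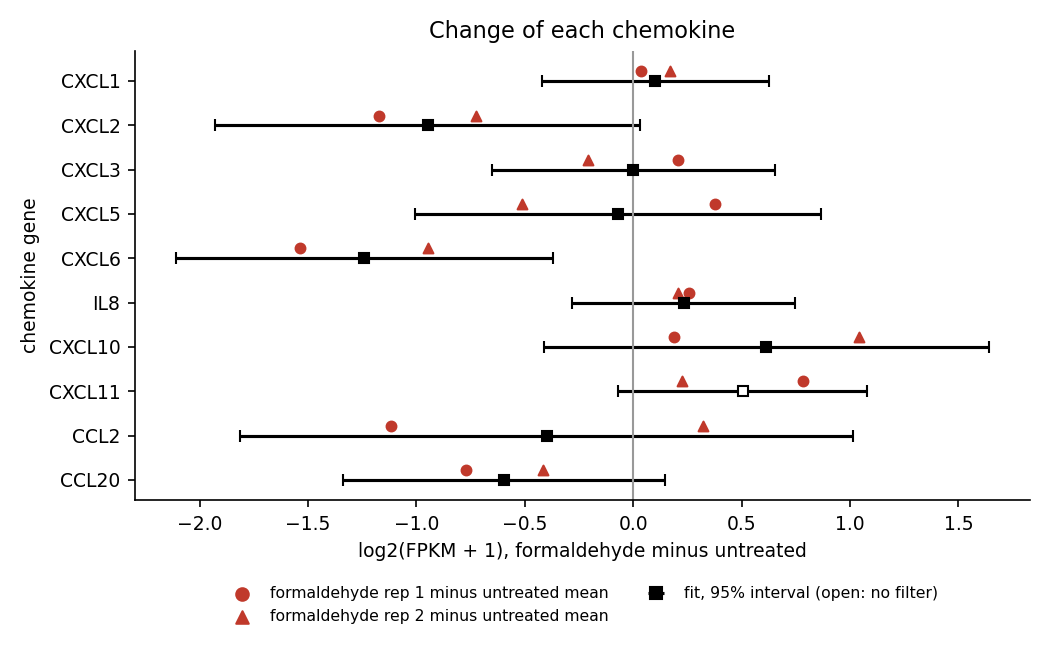
Formaldehyde minus untreated on the log2(FPKM + 1) scale for each chemokine, with the fitted value and its 95% interval in black (open square for CXCL11, fitted with no filter) and each formaldehyde library against the untreated mean in red. CXCL6 is the single gene whose interval, -2.11 to -0.37, does not reach 0.

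The levels of paralogs can be set against each other within a library, which removes depth and scaling. CXCL2 stood at 0.133 and 0.168 times CXCL1 with formaldehyde, against 0.221 and 0.463 times untreated. CXCL6 stood at 0.155 and 0.558 times CXCL5 with formaldehyde, against 0.898 and 0.752 times untreated. CXCL3 over CXCL1 was 0.0706 and 0.0458 with formaldehyde and 0.0673 and 0.0556 untreated, with overlapping groups. The ratios to CXCL1 and CXCL5 of CXCL2 and CXCL6 were lower in each formaldehyde library than in any untreated one. Since CXCL2 and CXCL6 were already lower in the same libraries, these ratios are no separate support. With 2 against 2, an exact permutation test could not give a two-sided p under 0.333. Both pairs have nearly the same 70-base promoter window, and so do CXCL3 and CXCL1, whose ratio overlapped. The promoters outside these windows were not compared, and the part of the promoters in these ratios was not tested.

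**Figure D3:**
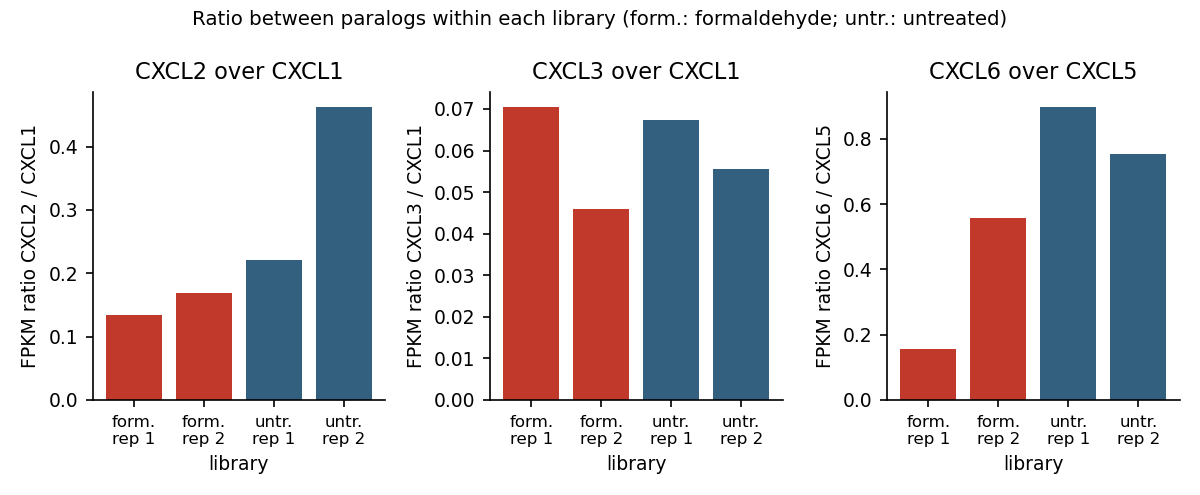
FPKM ratio between paralogs in each library, formaldehyde (red) left of untreated (blue), each axis starting at 0. CXCL2 over CXCL1 and CXCL6 over CXCL5 are lower in both formaldehyde libraries than in both untreated ones, and CXCL3 over CXCL1 overlaps.

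Reads shared between these genes could blur such ratios. With the recovered read length of 51 nt, 5.35% of the positions of the CXCL1 transcript, 8.82% of CXCL2 and 5.07% of CXCL3 (GENCODE release 29) were identical to a stretch of another of the 10. No other chemokine of the 10 shared a 51-nt stretch, and the longest identical run was 97 nt, between CXCL2 and CXCL3. CXCL5 and CXCL6 had at most 45 identical bases in a row. Stretches with mismatches and genes outside the 10 were not searched, so the search cannot show that the ratios are free of shared reads. The recovered fragment numbers were not always whole, such as 372.5 for CXCL5 in untreated replicate 1 and 208.5 for CXCL6 in untreated replicate 2.

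The 6 neutrophil chemokines showed no shared direction. Their median log2 fold change was -0.035, beside 0.030 over all 12407 genes, with 3 higher and 3 lower. Their summed FPKM was 271 and 276 with formaldehyde and 263 and 273 untreated. IL8 and CXCL1, which hold most of that sum, had slightly higher means with formaldehyde, and CXCL2 and CXCL6 had lower ones.

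CXCL10, also called IP-10, was a low message here. It stood at 0.833 and 2.31 FPKM with formaldehyde, against 0.941 and 0.336 FPKM untreated, and the groups overlapped. These values rest on 12 and 52 fragments with formaldehyde and on 16 and 9 untreated. Its log2 fold change was 0.61 (95% interval -0.41 to 1.64). Over the libraries left out that kept it above the filter, it ran from 0.34 without untreated replicate 2 to 1.04 without formaldehyde replicate 1. Without formaldehyde replicate 2 its mean fell under the filter. Formaldehyde replicate 1 alone lay 0.19 above the untreated mean on the log2(FPKM + 1) scale.

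CXCL11, also called I-TAC, was lower still, with a mean under the filter of 1 FPKM. It stood at 0.805 and 0.226 FPKM with formaldehyde, against 0.0426 and 0.0541 FPKM untreated. Both formaldehyde libraries were higher, on 16 and 7 fragments with formaldehyde against 1 and 2 fragments untreated. At equal depth the formaldehyde libraries together held 9.10 times as many (95% counting interval 2.75 to 47.4, again for these libraries). With no filter the log2 fold change was 0.50 (95% interval -0.07 to 1.08; limma adjusted p = 1.0). For CXCL10 the same ratio of fragments was 3.04 (95% counting interval 1.89 to 5.04). The CXCL10 excess came from formaldehyde replicate 2 and the larger CXCL11 value from replicate 1. CXCL11 stood at 0.966 and 0.0975 times CXCL10 with formaldehyde and at 0.0453 and 0.161 times untreated.

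Set against each other, the interferon-type pair was higher relative to the neutrophil group with formaldehyde. The median log2 fold change was -0.035 for the neutrophil chemokines and 0.56 for CXCL10 and CXCL11, a difference of -0.59. Measured from the untreated mean, formaldehyde replicates 1 and 2 had neutrophil medians of 0.12 and -0.36 and interferon-type medians of 0.49 and 0.63. The difference was therefore -0.37 and -0.99 in the formaldehyde libraries. In the untreated ones it was -0.030 and 0.030, values that mirror each other because they are measured from their own mean. They are therefore no independent comparison. CXCL10 itself overlapped between the groups, with formaldehyde replicate 1 (0.833 FPKM) below untreated replicate 1 (0.941 FPKM). The members were chosen with results of these data known, so the difference has no test. The scale matters here, since the interferon-type median was 1.51 with a pseudocount of 0.1 in place of 1.

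CCL2, the monocyte attractant MCP-1, had the highest mean of the 10 in both groups and differed widely between replicates. It stood at 113 and 307 FPKM with formaldehyde, against 311 and 195 FPKM untreated. Formaldehyde replicate 1 was the low library, and replicate 2 lay level with the higher untreated one. The log2 fold change was -0.40 (95% interval -1.81 to 1.01), and without formaldehyde replicate 1 it turned to 0.32. Its share of the FPKM of the 10 genes was 29.3% and 52.4% with formaldehyde and 53.9% and 41.5% untreated.

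CCL20, the ligand of CCR6, stood at 0.553 and 0.990 FPKM with formaldehyde, against 2.05 and 1.31 FPKM untreated. The groups did not overlap. By its level and the depth these are 5 and 14 fragments with formaldehyde and 22 in each untreated library. The formaldehyde libraries held 0.513 times as many at equal depth (95% counting interval 0.283 to 0.897, for these libraries). The log2 fold change was -0.59 (95% interval -1.34 to 0.15; limma unadjusted p = 0.0946), and it ran from -0.80 to -0.42 over the libraries left out that kept it above the filter.

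The 3' UTRs of the chemokines differ in AU-rich elements. ATTTA, written as DNA, occurred 10 times in the 721 nt of CXCL2, 9 times in the 1252 nt of IL8, 7 times in CXCL3, 5 times in CXCL1, 6 times in CXCL6 and 11 times in the longer CXCL5 (GENCODE release 29). Of 3' UTRs of similar length, 0.0437% held at least as many as CXCL2, 1.06% as CXCL3 and 2.51% as IL8. The shares were 5.62% for CXCL5, 5.87% for CXCL1 and 10.8% for CXCL6. The genes compared include the chemokines themselves, so a very small share may be the gene itself. CXCL10, CXCL11 and CCL2 held 1 each and CCL20 held 3. The longer TATTTAT, with which ATTTA overlaps, was found 8 times in CXCL2, 4 times each in CXCL1 and IL8, and not in CXCL6, CXCL10, CXCL11 or CCL2. It stood at least once in 10.2% (for CCL2) to 40.9% (for CXCL5) of 3' UTRs of similar length.

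Other chemokine ligands were mostly silent. Of 37 found, 18 were listed at 0 in every library and 33 stayed under 1 FPKM, and 4 were tested. CCL5, or RANTES, which attracts T cells and monocytes, stood at 2.26 and 5.78 FPKM with formaldehyde, against 0.821 and 1.44 FPKM untreated, with a log2 fold change of 1.16. CCL28, a mucosal epithelial chemokine, stood at 0.804 and 0.735 FPKM with formaldehyde, against 1.39 and 1.94 FPKM untreated. The groups did not overlap for either gene, 1 higher and 1 lower of the 4 tested, against 16.2% and 10.7% of all genes. CXCL16 had the highest mean of the list, at 9.30 and 13.1 FPKM with formaldehyde and 6.41 and 13.8 FPKM untreated, and CCL26 stood at 2.75 and 1.51 FPKM with formaldehyde and 2.33 and 2.64 FPKM untreated. No ligand passed over all genes, and the median log2 fold change of the 4 was 0.012. Of the 4, 1, CCL5, had a limma unadjusted p under 0.05, against 2.76% of all genes tested.

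Most receptors were close to 0. Of 23 chemokine receptors 19 stayed under 1 FPKM in every library. CXCR1 was listed at 0 throughout, CXCR2 reached 0.0231 FPKM and CXCR3 0.0266 FPKM (named as receptors of the members, after their values were seen). CXCR7, an atypical receptor that binds CXCL11 and CXCL12 without G protein signalling, stood at 1.33 and 0.475 FPKM with formaldehyde, against 2.70 and 3.01 FPKM untreated. Both formaldehyde libraries were lower, with a log2 fold change of -1.05 (limma unadjusted p = 0.0193, adjusted p = 0.9999). CCR10, the receptor of CCL27 and CCL28, stood at 1.15 and 1.64 FPKM with formaldehyde, against 1.55 and 2.43 FPKM untreated.

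Genes of the NF-kB pathway were all expressed, and most had slightly higher values with formaldehyde. Of 23 tested, 17 were higher and 6 lower with formaldehyde, 0 passed over all genes, and the median log2 fold change was 0.16 beside 0.030 over all genes. Groups did not overlap in 5 higher and 2 lower genes of the 23, shares near the 16.2% and 10.7% of all genes tested. NFKBIE alone of the 23 had an unadjusted p under 0.05, against 2.76% of all genes. NFKBIE, an inhibitor that holds NF-kB in the cytoplasm, stood at 16.1 and 16.9 FPKM with formaldehyde, against 10.97 and 10.7 FPKM untreated. NFKB2, the gene of the p100 and p52 subunits, had 25.9 and 32.4 FPKM in formaldehyde libraries and 18.8 and 23.7 FPKM in untreated ones. NFKBIB, another inhibitor, had 51.7 and 70.5 FPKM in formaldehyde libraries and 41.7 and 46.4 FPKM in untreated ones. TNIP1, which had the highest mean, was at 104 and 168 FPKM with formaldehyde and 105 and 104 FPKM untreated.

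Among the listed cytokines and receptors, CSF2 and IL1B had the highest fitted log2 fold changes of all lists, though neither passed. Their part in the chemokine values was not tested. IL1B, the gene of interleukin 1 beta, a strong inducer of neutrophil chemokines, stood at 56.1 and 50.5 FPKM with formaldehyde, against 20.6 and 16.6 FPKM untreated. The log2 difference of 1.47 ± 0.21 (SE) had a limma adjusted p of 0.349. CSF2, which encodes GM-CSF, had 87.7 and 49.4 FPKM in formaldehyde libraries and 15.2 and 11.4 FPKM in untreated ones, and its log2 difference of 2.24 ± 0.34 (SE) had a limma adjusted p of 0.414. IRAK1, a kinase of the interleukin 1 receptor pathway, had 135 and 108 FPKM in formaldehyde libraries and 82.3 and 62.9 FPKM in untreated ones. Of 15 tested genes in this list, 7 were higher and 8 lower, 0 passed, and the median log2 fold change was -0.14. At a limma unadjusted p under 0.05 there were 3 of the 15, all higher, against 2.76% of all genes tested. Groups did not overlap in 4 higher and 3 lower genes of the 15, against 16.2% and 10.7% of all genes.

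Regulators on the interferon side differed in direction. Of 14 tested, 6 were higher and 8 lower, 0 passed, and the median log2 fold change was -0.093. At a limma unadjusted p under 0.05 there were 2 of the 14, both higher, against 2.76% of all genes tested. Groups did not overlap in 3 higher and 3 lower genes of the 14, against 16.2% and 10.7% of all genes. IRF9 stood at 26.4 and 31.8 FPKM with formaldehyde, against 15.6 and 15.3 FPKM untreated. IRF7 had 20.3 and 36.2 FPKM in formaldehyde libraries and 13.1 and 18.9 FPKM in untreated ones. For IRF9 and IRF7 the groups did not overlap. IRF3, the gene of the list with the highest mean, had 50.1 and 69.6 FPKM in formaldehyde libraries and 44.2 and 64.5 FPKM in untreated ones, with overlap. The interferon gene IFNB1 was at 0.110 FPKM or less and IFNG was listed at 0 (both chosen after their values were seen).

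Factors of AU-rich element decay and stability also differed in direction. Of 12 tested, 7 were higher and 5 lower, 0 passed, and the median log2 fold change was 0.056, with 0 at an unadjusted p under 0.05. ZFP36, described above, had a log2 fold change of -1.13 with overlapping groups. TIA1, a translational repressor, stood at 10.3 and 9.18 FPKM with formaldehyde, against 14.9 and 10.5 FPKM untreated. MAPKAPK2, the kinase that inactivates tristetraprolin, had 43.7 and 37.1 FPKM in formaldehyde libraries and 36.8 and 30.1 FPKM in untreated ones. HNRNPD, with the highest mean, was at 142 and 195 FPKM with formaldehyde and 155 and 161 FPKM untreated.

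**Figure D4:**
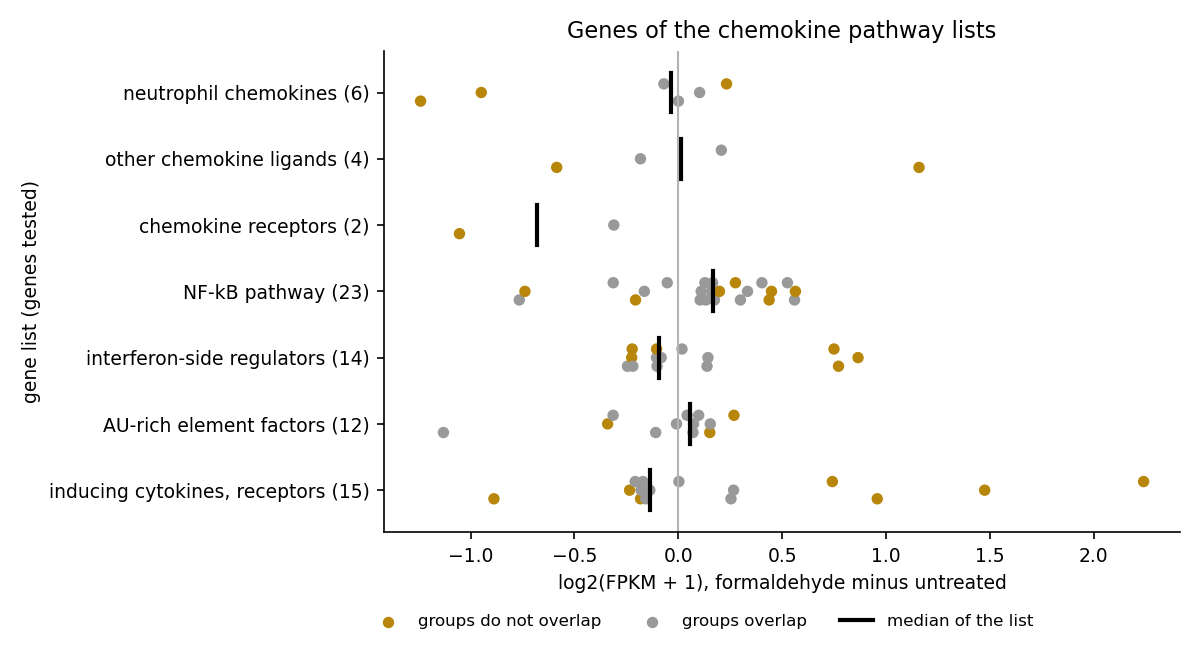
Log2 fold change (formaldehyde minus untreated) of every tested gene of the neutrophil chemokines and the pathway lists. Gold marks genes whose groups do not overlap and grey those that do, with the list median as a black bar. The interferon-type and CC chemokines (CXCL10, CCL2 and CCL20 among the tested) are not drawn here. CSF2 at 2.24 and IL1B at 1.47 are the points farthest right, and CXCL6 at -1.24 is the farthest left.

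**Figure D5:**
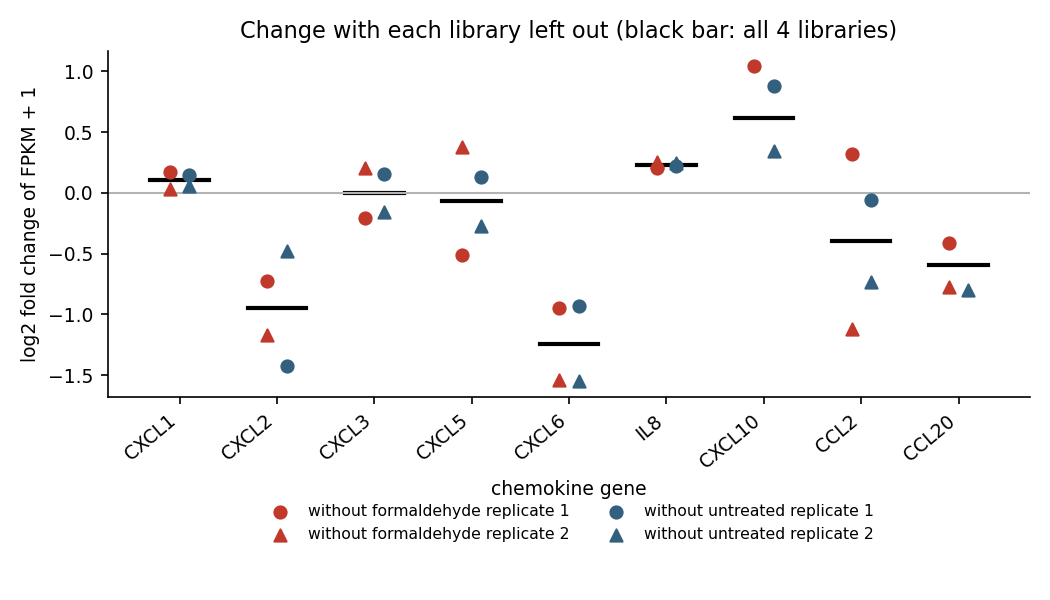
Log2 fold change of 9 chemokines with each library left out, as a red symbol for a formaldehyde and a blue one for an untreated library, beside the value from all 4 as a black bar. CXCL10 and CCL20 each lack a point where their mean fell under 1 FPKM without that library. CXCL2, CXCL6 and CCL20 stay below 0 and IL8, CXCL1 and CXCL10 above it, while CXCL3, CXCL5 and CCL2 cross it.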

How the data were processed

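RNA from 4 BEAS-2B libraries was measured, 2 per group. Each deposited file lists 40255 transcripts of 1 library with FPKM by the authors, per the file attributes, and the bounds of an interval. Per the submitters' processing notes, FastQC 0.10.0, STAR 2.5.2 and Cufflinks 2.0.2 were used with hg19 and GRCh37. For strand setting and multi-mapped reads the protocol is not given in the sources used here. The 894 transcripts with no gene name were left out, and FPKM were summed for 23004 genes. Files were matched to samples by title.

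Genes with a mean of at least 1 FPKM went into limma 3.58.1 (R 4.3.3) as log2(FPKM + 1) values (mean trend, no covariate, two-sided, Benjamini-Hochberg over all genes, threshold 0.05). Fragment numbers were taken from the upper bound, which is FPKM times 1 plus 2 over the square root of the fragments, and depth from the ratio of coverage to FPKM. Intervals on fragments are exact and cover counting error only. No count test was run.

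The 10 chemokines and all lists were chosen with earlier results of these data known. Besides the 10, the text names from each list up to 3 tested genes with the largest moderated t, any past the threshold and the gene with the highest mean; others are said to be chosen afterwards. Some genes of these lists are not reported here. Promoters are from RefSeq and transcripts from GENCODE release 29, matched by symbol or RefSeq transcript; motifs were searched on both strands and may overlap. Alternatives covered the pseudocount, filter, scaling, transcript length, highest transcript, trend, replicate block and each library left out. Tables were made with Python 3.11.15 and figures with matplotlib 3.10.9.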

Additional observations from a re-analysis of the deposited data

How the results depend on the processing

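No chemokine passed the threshold under any of the 13 alternatives, and of 112 values of single chemokines under them 8 had the opposite sign. These were CXCL3, which lay at 0.00032 (-0.00070 with a pseudocount of 0.1, -0.026 rescaled by median ratios, -0.057 rescaled to the FPKM sum, -0.21 to 0.21 with each library left out), CXCL5 (-0.51 to 0.38) and CCL2 (-1.12 to 0.32). With a pseudocount of 0.1 the interferon-type median was 1.51 and the neutrophil minus interferon-type difference -1.56, since that scale spreads low genes. With each library left out, the neutrophil median ran from -0.36 to 0.14, the difference from -0.99 to -0.37 and the number of chemokines without overlap from 6 to 9, beside 5 with all, as fewer libraries overlap less often. Over all genes 19 passed. The count was 0 with no filter (652 at an unadjusted p under 0.05 by limma), 1 for genes of at least 300 nt, 29 with the replicate block and 46 to 62 with each library left out. Same-numbered libraries deviated together with a correlation of 0.253 across genes, but with 2 pairs and no label for a shared batch they were not treated as paired. CXCL10, CXCL11 and CCL20 rest on 52 fragments or fewer per library.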
